A study of Rattus norvegicus with 8 samples.

Results

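Insulin acts on the liver through a receptor, adaptor proteins and the kinase AKT, and 10 genes of that route were examined in livers of rats that drank hydrogen water. They are the insulin receptor (Insr), the adaptors Irs1 and Irs2, the PI3-kinase subunit Pik3r1, the kinases Akt1 and Akt2, the transcription factors Foxo1 and Foxo3, the coactivator Ppargc1a (PGC1 alpha) and the secreted protein Igfbp1. The members are all probe sets, small groups of array probes directed at a transcript, whose single platform gene symbol is one of these names. This gave 22 of the 31099 probe sets on the array. Each of the 10 genes had at least 1 probe set, 4 genes had 1 and 6 had several.

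The animals were male Sprague-Dawley rats, an outbred strain, labelled as 8 weeks old. For 4 weeks the control group drank sterilized distilled water and the hydrogen water group drank water with 0.7 mM dissolved molecular hydrogen. The rats were fed a commercial diet freely. Liver RNA was measured on 4 arrays per group, and the design names 8 animals per group. The labels do not say whether an array holds 1 animal or a pool, so the spread and the p-values given here are those between arrays. The comparison asks how hydrogen water alters gene expression in liver.

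In hepatocytes, insulin binds its receptor, IRS1 and IRS2 recruit PI3-kinase, and AKT is switched on. AKT phosphorylates FOXO proteins and keeps them out of the nucleus, so that in the fed state their targets are held down. During fasting FOXO1 returns to the nucleus and works together with PGC1 alpha, which glucagon and glucocorticoids induce, on genes for glucose production and on Igfbp1. Much of this control acts on proteins, which an mRNA measurement does not see.

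Whole liver was measured, so fewer cells of a type and less RNA per cell cannot be told apart. Of 10 hepatocyte markers, 9 had a probe set, all 9 lay above the median signal, and their summed signal ran from 69043 to 73241 in controls and from 70642 to 71918 with hydrogen water. These are sums of normalized signals, and the normalization named below sets the highest signals of all arrays alike. A steady sum of bright markers is thus partly fixed by the processing and cannot show whether the hepatocyte share was the same. Markers of exocrine pancreas and skeletal muscle, 4 and 5 genes, were all below the median signal. The deposited median signal of the arrays ran from 17.2 to 26.8, and they were quantile-normalized, which gives each array the same distribution. Values below are log2(normalized signal + 2.05) unless named otherwise, and a difference is hydrogen water minus control. The added 2.05 makes differences of dim probe sets smaller than they are.

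One member probe set rose, the brightest of Foxo1. It was 2.15-fold higher in livers of rats given hydrogen water, while the mean of both tested Foxo1 probe sets did not pass (0.75 ± 0.20, SE; adjusted p = 0.119), and no adaptor, kinase, receptor or PI3-kinase subunit passed the test. Of the 22 probe sets, 16 had a mean signal at or above the median of all probe sets and entered the test, at least 1 for each of the 10 genes. Among these 16, 1 passed an adjusted p of 0.05 in limma, against 0.825% of all 15521 tested probe sets. It was higher, as were 0.445% of all tested probe sets, and 0 members were lower, against 0.38%. An unadjusted p under 0.05 was found at 5, against 12.5% of all tested probe sets. Of these, 4 were higher and 1 was lower, against 6.08% and 6.46% of all tested probe sets. These 5 lay in Foxo1, Foxo3, Igfbp1 and Ppargc1a, with 2 in Ppargc1a, and the lower one was Foxo3. The next smallest unadjusted p-values in limma were those of Irs2 (0.063) and Akt2 1387353_at (0.084). The difference was positive at 8 of the 16, against 49.7% of all tested probe sets. The median difference of the 16 was 0.0078, and that of all tested probe sets was −0.00115. The groups did not overlap at 2 of the 16, one of Foxo1 and one of Akt2, against 7.48% of all tested probe sets. The members were chosen with earlier results of these data known, so these counts are a description.

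**Figure D1:**
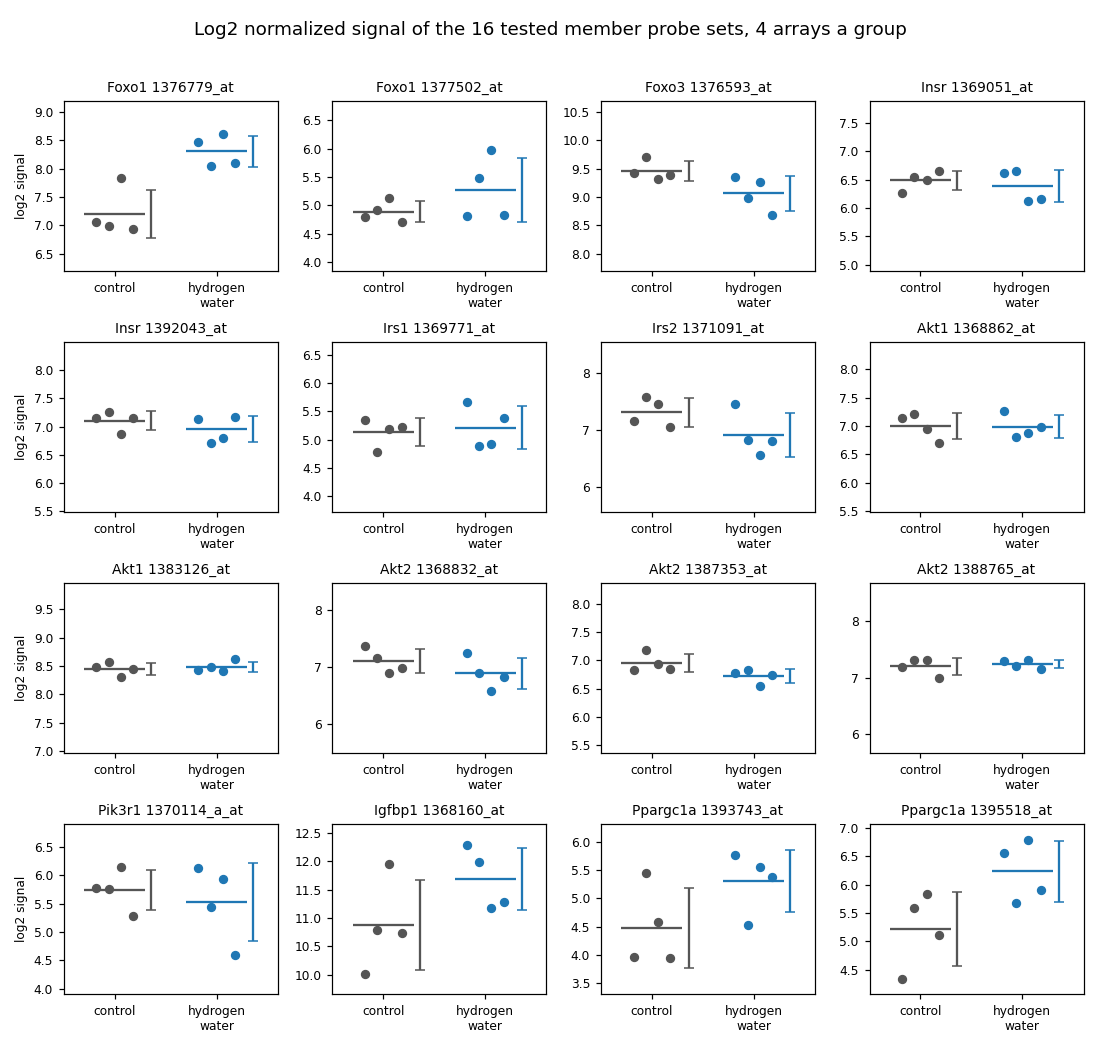
Log2 normalized signal (vertical axis, each panel spans the same number of log2 units) of the 16 tested member probe sets on 4 control and 4 hydrogen water arrays. Points are arrays in the order of their label numbers, horizontal lines are means and bars are 1 SD; at Foxo1 1376779_at the hydrogen water arrays lie between 8.05 and 8.61 and the controls between 6.93 and 7.83.

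Foxo1 encodes the forkhead factor that carries most of the FOXO activity in liver. At probe set 1376779_at, control arrays 1 to 4 had log2 signals of 7.05, 6.99, 7.83 and 6.93, and hydrogen water arrays 1 to 4 had 8.47, 8.05, 8.61 and 8.09. All 4 hydrogen water arrays lay above all 4 controls, and control array 3 stood well above the other controls. The means were 7.20 ± 0.42 and 8.31 ± 0.28 (SD, n = 4 each), a difference of 1.10 ± 0.21 (SE; limma adjusted p = 0.0354). On the deposited scale, before normalization, the controls had signals of 167, 115, 288 and 124 and the hydrogen water arrays 270.0, 247, 318 and 269, so that control array 3 lay within the hydrogen water range. The arrays are not on a common scale there. The deposited median signal of control arrays 1 to 4 was 26.8, 18.9, 24.6 and 21.6. That of hydrogen water arrays 1 to 4 was 17.2, 19.7, 17.7 and 20.2.

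The Foxo1 call depended on single arrays. It was lost without control array 1 (adjusted p = 0.0925), 2 (0.108) or 4 (0.0989) and without hydrogen water array 1 (0.11), 3 (0.0978) or 4 (0.0679), and it was kept without control array 3 (0.0035) and without hydrogen water array 2 (0.0403). The difference stayed between 1.00 and 1.31 in these 8 fits. Without normalization the difference was 0.75 ± 0.24 (SE; adjusted p = 0.078), where the median of all tested probe sets was itself −0.33. Without an intensity trend in the variance prior the main difference kept its size (adjusted p = 0.0842). The log2 ratio of 3′ to 5′ signal of Gapdh, a sign of RNA quality, ran from 0.14 to 0.34 in controls and from 0.27 to 0.46 with hydrogen water. With that ratio as a covariate the Foxo1 difference was 1.47 ± 0.25 (SE; adjusted p = 0.0257). The genes listed as cholangiocyte markers were Krt19, Krt7, Epcam, Sox9, Spp1 and Krt18, and 5 of the 6 had a probe set. Their summed normalized signal ran from 1267 to 1880 in controls and from 817 to 1147 with hydrogen water. Krt7 and Spp1 were below the median signal, and 0 of the 3 above it passed. Such a sum follows its brightest genes and does not measure the number of cholangiocytes. The part of this sum in the Foxo1 result was not tested.

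**Figure D2:**
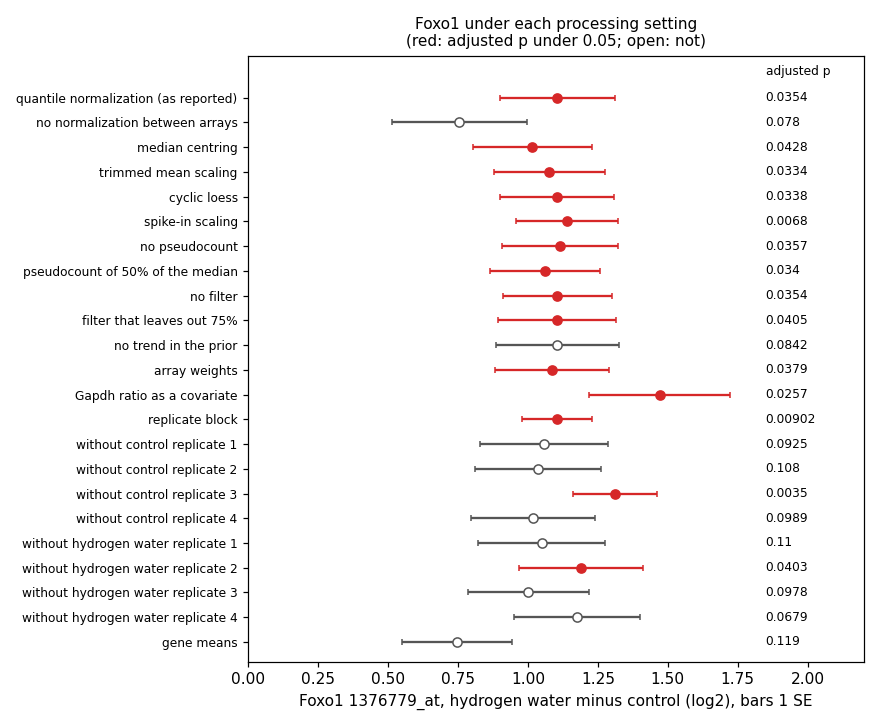
Difference of Foxo1 1376779_at, hydrogen water minus control on the log2 scale (horizontal axis, bars 1 SE), as reported and under each other processing setting, with the adjusted p at the right. Red points passed 0.05 and open points did not; the row for gene means averages both tested Foxo1 probe sets and lies at 0.75.

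The other Foxo1 probe sets did not pass. At 1377502_at the controls had 4.80, 4.92, 5.13 and 4.70 and the hydrogen water arrays 4.81, 5.47, 5.98 and 4.83. Hydrogen water arrays 2 and 3 were above all controls there, and arrays 1 and 4 lay among them. The difference was 0.39 ± 0.26 (SE; adjusted p = 0.619). The change at 1376779_at exceeded that at 1377502_at by 0.72 ± 0.30 (SE), for which exact permutation (two-sided, 70 arrangements of the arrays) gave p = 0.0857, or 0.3 after adjustment over the 7 such pairs of probe sets compared. At 1375688_at, below the signal filter, 7 arrays had values between 1.47 and 2.12 and hydrogen water array 4 had 4.12.

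Foxo3 encodes a second FOXO factor under the same AKT control, and its bright probe set was on the low side with hydrogen water. At 1376593_at the controls had 9.42, 9.71, 9.31 and 9.38 and the hydrogen water arrays 9.35, 8.97, 9.26 and 8.67. All 4 hydrogen water arrays lay under the control mean, and array 1 overlapped the lowest control. The difference was −0.39 ± 0.15 (SE; adjusted p = 0.295), with a 95% interval from −0.72 to −0.07. Without normalization it was −0.72 ± 0.17 (adjusted p = 0.0267), where the median of all tested probe sets was itself −0.33. The 2 other Foxo3 probe sets were below the filter. They ran from 3.19 to 4.43 and from 1.46 to 3.87 over the 8 arrays, with no separation of the groups.

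Igfbp1 encodes a liver-secreted protein that binds insulin-like growth factors, and its gene is a classical target that FOXO1 activates and insulin represses. The regulatory stretch just before its start is shown because it holds the insulin response sequence through which that control is known to act. The sequence is from RefSeq, assembly GRCr8, plus strand, chr14:86261027-86261276, the 250 bases before the annotated start. Capitals mark the motifs CAAAACA and CAAAATA on either strand.
Igfbp1: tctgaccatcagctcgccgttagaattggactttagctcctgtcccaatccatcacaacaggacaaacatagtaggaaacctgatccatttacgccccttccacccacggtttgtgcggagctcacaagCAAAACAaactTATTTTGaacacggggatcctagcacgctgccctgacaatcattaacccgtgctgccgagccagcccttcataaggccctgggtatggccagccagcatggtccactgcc

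The first capital block begins 121 bases before the start and the second ends 104 bases before it, and the blocks do not overlap each other. Of all 33469 promoters of that length in the table, 9.54% held CAAAACA or CAAAATA and 0.373% held both. The FOXO core motif GTAAACA, on either strand, was in 3.21%. Among the members, 8 had a promoter entry, Foxo3 and Irs2 did not, and 2 of the 8 held at least 1 of the 3 motifs, against 12.3% of all promoters. The second was Insr, with GTAAACA on the reverse strand 100 to 94 bases before the start used in the table. Its site is shown on the gene's strand, the minus strand, at chr12:6128886-6128914, beside that of Bcl2l11, the FOXO target described further on, on the plus strand at chr3:135819827-135819855.
Insr: acgggccgcgtTGTTTACtggccggagtc
Bcl2l11: aagtcactaggGTAAACAcgccggggtgg

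Igfbp1 was higher on average with hydrogen water, and the difference did not pass. The controls had 10.02, 10.79, 11.95 and 10.74 at its single probe set and the hydrogen water arrays 12.30, 11.99, 11.18 and 11.28. Control array 3, also the highest control for Foxo1, lay above hydrogen water arrays 3 and 4. The means were 10.87 ± 0.80 and 11.69 ± 0.54 (SD, n = 4 each), a difference of 0.82 ± 0.36 (SE; limma adjusted p = 0.387), and all 4 hydrogen water arrays were above the control mean. The order of the arrays differed from that of Foxo1: hydrogen water array 3 had the highest Foxo1 signal and the lowest Igfbp1 signal of its group. Insr, which carries the other motif, is described with the receptor below.

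Ppargc1a encodes PGC1 alpha, a coactivator of mitochondrial genes and of FOXO1 on gluconeogenic genes. At 1395518_at the controls had 4.34, 5.58, 5.83 and 5.11 and the hydrogen water arrays 6.57, 5.67, 6.79 and 5.91. Hydrogen water arrays 1, 3 and 4 stood above all controls, and array 2 lay just under control array 3. The difference was 1.02 ± 0.33 (SE; adjusted p = 0.218), the smallest adjusted p among the members after Foxo1. At 1393743_at the controls had 3.96, 5.44, 4.58 and 3.94 and the hydrogen water arrays 5.76, 4.53, 5.56 and 5.37. Hydrogen water arrays 2 and 4 were within the control range, and the difference was 0.83 ± 0.36 (SE; adjusted p = 0.387). At the third probe set, below the filter, controls ran from 1.37 to 3.33 and hydrogen water arrays from 2.26 to 4.35. At each of the 3 probe sets all 4 hydrogen water arrays were above the control mean. The 2 tested probe sets differed in their change by −0.19 ± 0.32 (SE; exact permutation p = 0.571, two-sided).

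**Figure D3:**
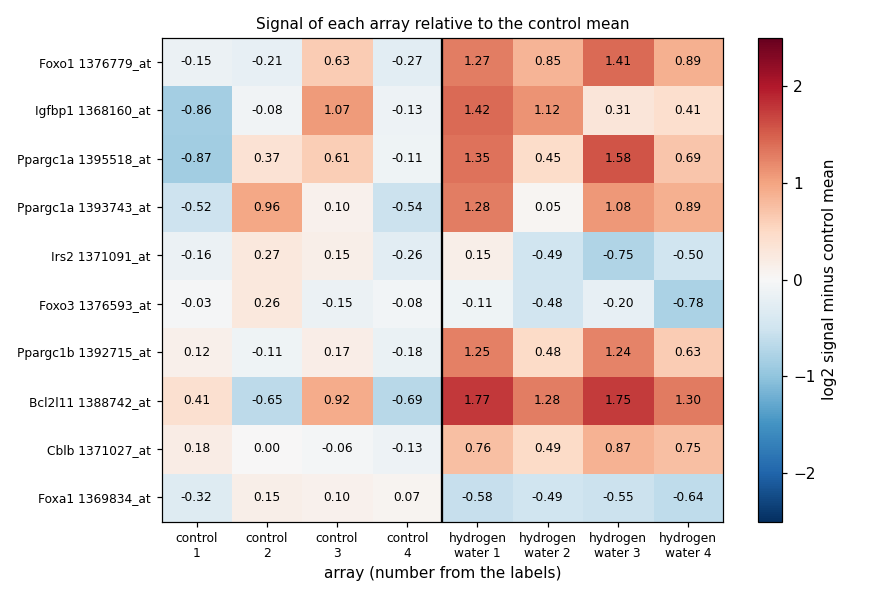
Log2 signal of each array minus the mean of the 4 controls, for 6 member probe sets and for Ppargc1b, Bcl2l11, Cblb and Foxa1, with the value printed in each cell (columns are arrays, red is above the control mean and blue below). Control array 3 was above the control mean at Foxo1 (0.63), Igfbp1 (1.07) and Ppargc1a 1395518_at (0.61), and below it at Foxo3 (−0.15). At Ppargc1a 1393743_at it was at 0.10, and control array 2 was the highest control (0.96). The genes shown are a selection, without Akt2 and without Fkbp5, Alas1 and Ctdsp2, which passed.

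No probe set of the upper part of the route, from receptor to AKT, passed the test. Insr, the receptor kinase, had 2 tested probe sets. Controls ran from 6.26 to 6.66 and hydrogen water arrays from 6.13 to 6.65 at 1369051_at, a difference of −0.10 ± 0.16 (SE; adjusted p = 0.862). At 1392043_at the ranges were 6.86 to 7.25 and 6.71 to 7.16, and the difference was −0.15 ± 0.14 (SE). The groups overlapped at both, and the 95% intervals reached from −0.45 to 0.25 and from −0.46 to 0.15.

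Irs1 and Irs2 are the adaptors that link the receptor to PI3-kinase, and Irs2 is itself a gene that FOXO1 activates in liver. Irs2 had signals of 7.15, 7.58, 7.46 and 7.05 in controls and 7.46, 6.82, 6.56 and 6.81 with hydrogen water. Hydrogen water arrays 2, 3 and 4 were below all controls and array 1 was level with control array 3. The difference was −0.40 ± 0.19 (SE; adjusted p = 0.435), with a 95% interval from −0.82 to 0.03. Irs1 ran from 4.78 to 5.34 in controls and from 4.88 to 5.67 with hydrogen water. Its difference was 0.08 ± 0.22 (SE; adjusted p = 0.935).

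Pik3r1 encodes the regulatory subunit of PI3-kinase, and was read by 1370114_a_at, a probe set shared by alternative transcripts. The controls had 5.78, 5.76, 6.14 and 5.29 and the hydrogen water arrays 6.14, 5.44, 5.94 and 4.60. Array 4 of the hydrogen water group was below all others, and the remaining 7 overlapped. The difference was −0.21 ± 0.31 (SE; adjusted p = 0.848), and its sign turned without hydrogen water array 4 (0.10).

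Akt2 encodes the main AKT kinase of insulin action in liver. At 1387353_at the controls had 6.83, 7.18, 6.93 and 6.86 and the hydrogen water arrays 6.78, 6.82, 6.55 and 6.74. The groups did not overlap, by 0.01 between the lowest control and the highest hydrogen water array, and the difference of −0.23 ± 0.12 (SE) did not pass (adjusted p = 0.489). At 1368832_at the difference was −0.21 ± 0.16 and at 1388765_at 0.04 ± 0.11 (SE), where the arrays ran from 7.00 to 7.30. The change at 1387353_at lay below that at 1388765_at by 0.27 on the log2 scale (mean of the per-array difference −0.25 in controls and −0.52 with hydrogen water; exact permutation p = 0.0286, two-sided, the lowest value possible with 70 arrangements, and 0.2 after adjustment over the 7 pairs). The fourth Akt2 probe set was below the filter and ran from 1.27 to 4.29.

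Akt1 encodes a closely related, broadly expressed kinase. At 1383126_at controls ran from 8.31 to 8.57 and hydrogen water arrays from 8.41 to 8.62, a difference of 0.03 ± 0.09 (SE) with a 95% interval from −0.17 to 0.23. At 1368862_at it was −0.02 ± 0.15 (SE), with a 95% interval from −0.33 to 0.30. The sign of both differences turned under other scalings. The third Akt1 probe set was below the filter, with values from 2.02 to 3.88.

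**Figure D4:**
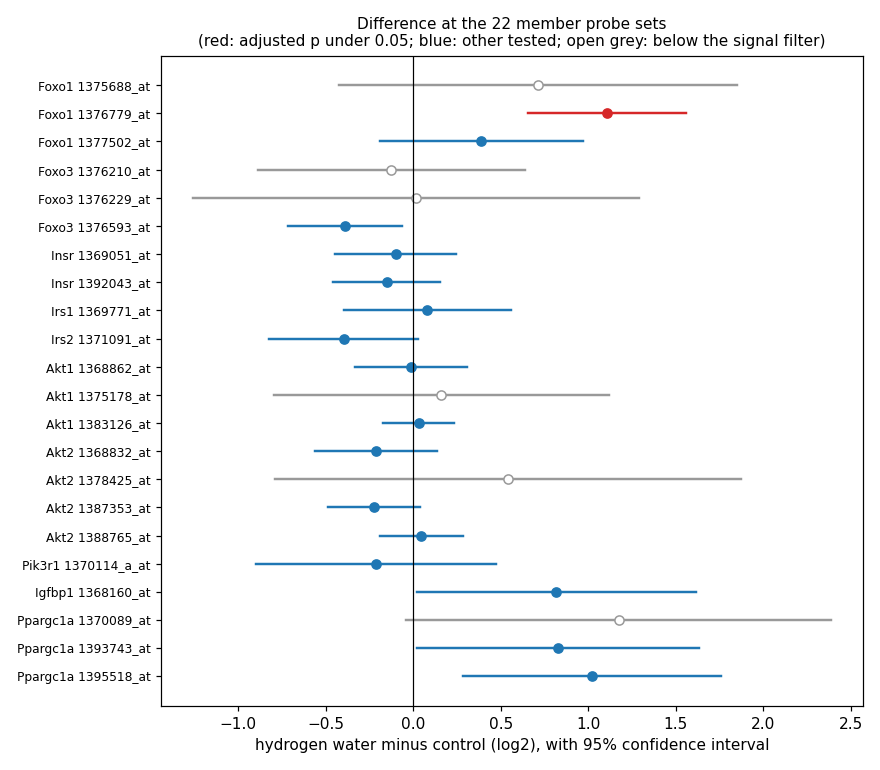
Difference of each of the 22 member probe sets, hydrogen water minus control on the log2 scale (horizontal axis), with 95% confidence intervals from limma; open grey points are the 6 probe sets below the signal filter, taken from a fit without it. The interval of Foxo1 1376779_at runs from 0.65 to 1.56, and those of Insr, Irs1, Irs2, Akt1, Akt2 and Pik3r1 include 0.

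The genes around the members were read from 10 lists of 187 genes, each gene by its brightest tested probe set. Of these, 153 were measured, 2 rose (Cblb, Fkbp5) and 2 fell (Ctdsp2, Alas1), against 0.868% of all 9106 genes measured in this way. An unadjusted p under 0.05 was found at 27, against 12.2% of all genes, the share to set beside each list below. The median difference over all 9106 genes was −0.00199. Because the lists were chosen with earlier results of these data known, the counts from them are a description.

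Of 17 genes for the insulin and IGF receptors' other adaptors and their brakes, 13 were measured, 1 rose and 12 did not pass, with a median of 0.08. Cblb, a ubiquitin ligase that restrains receptor and PI3-kinase signalling, had 7.10, 6.93, 6.86 and 6.79 in controls and 7.68, 7.41, 7.79 and 7.67 with hydrogen water. The groups were well apart and both narrow. The difference was 0.72 ± 0.12 (SE; adjusted p = 0.0208). It missed the threshold without normalization (0.36, adjusted p = 0.222), without control array 2 (0.062) or 4 (0.0693), and without hydrogen water array 1 (0.0709), 3 (0.0728) or 4 (0.0686). The adaptors Shc1 and Gab1 differed by 0.11 ± 0.09 and −0.18 ± 0.15 (SE).

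Of 34 further genes of the PI3-kinase and AKT arm, 28 were measured and 0 passed in limma (3 at an unadjusted p under 0.05), and the median was −0.03. Trib1, a pseudokinase, ran from 5.85 to 6.59 in controls and from 6.61 to 7.32 with hydrogen water, a difference of 0.69 ± 0.19 (SE; adjusted p = 0.134). Eif4ebp1, a repressor of translation under mTOR control, differed by 0.25 ± 0.08, and the glycogen synthase Gys2 by −0.67 ± 0.25 (SE; adjusted p = 0.283). Gys2 passed without normalization (−1.01, adjusted p = 0.00988) and with the Gapdh covariate (−1.32, adjusted p = 0.0235). Of 13 genes of the RAS and MAP kinase arm, 7 were measured and 0 passed in limma (0 at an unadjusted p under 0.05), and the median was −0.08. Nras, a RAS GTPase, had the smallest p there, with a difference of −0.22 ± 0.13 (SE).

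Of 19 relatives and modifiers of FOXO, 16 were measured and 0 passed in limma (3 at an unadjusted p under 0.05), and the median was −0.06. Foxa1, a forkhead pioneer factor of liver genes, had 6.78, 7.25, 7.20 and 7.17 in controls and 6.52, 6.61, 6.56 and 6.46 with hydrogen water. All hydrogen water arrays lay below all controls, of which array 1 was the lowest by far. The difference was −0.56 ± 0.13 (SE; adjusted p = 0.0689). It passed with median centring (−0.66, adjusted p = 0.0426), without normalization (0.0111) and without control array 1 (0.033). The acetyltransferase Ep300 differed by −0.32 ± 0.10 and the stress kinase Mapk8 by 0.27 ± 0.11 (SE), and neither passed.

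Of 28 genes described as FOXO targets, 23 were measured, 1 fell and 22 did not pass, with a median of 0.03. An unadjusted p under 0.05 was found at 7, against 12.2% of all genes. Of these 7, 4 were higher and 3 lower. Bcl2l11 (BIM), a BH3-only death protein, had 6.32, 5.26, 6.83 and 5.22 in controls and 7.68, 7.19, 7.66 and 7.21 with hydrogen water. Hydrogen water arrays were all above the controls, with control array 3 again the highest of its group. The difference was 1.53 ± 0.33 (SE; adjusted p = 0.0635). It passed without control array 3 (1.82, adjusted p = 0.00986), with spike-in scaling (0.015), without normalization (0.0496) and with the Gapdh covariate (0.0176). The site shown above is the GTAAACA in its promoter window. Among the 20 measured genes of the list with a promoter entry, Bcl2l11 alone held that motif, against 3.21% of all promoters. At least 1 of the 3 motifs was in 3 of the 20, against 12.3% of all promoters. Atg14 and Ccng2 were the others, each with CAAAACA. A link between motif and change was not tested. Pnpla2, the triglyceride lipase ATGL, differed by 0.61 ± 0.15 (SE; adjusted p = 0.091). Ctdsp2, a phosphatase, fell: its difference was −0.36 (SE 0.07, adjusted p = 0.0483). Leaving out any 1 of the 8 arrays ended the call (adjusted p from 0.0811 to 0.131), as did median centring (0.0764), trimmed mean scaling (0.0557), spike-in scaling (0.4), no filter (0.0651), no prior trend (0.125) and the Gapdh covariate (0.17).

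All 19 relatives and partners of PGC1 alpha were measured, 0 passed in limma (4 at an unadjusted p under 0.05), and the median was 0.09. Ppargc1b, which encodes the closest relative PGC1 beta, had 5.51, 5.28, 5.56 and 5.21 in controls and 6.64, 5.87, 6.63 and 6.02 with hydrogen water. The groups did not overlap, and hydrogen water arrays 1 and 3 were the highest, as at Ppargc1a 1395518_at. The difference was 0.90 ± 0.20 (SE; adjusted p = 0.0675), and it passed without hydrogen water array 2 (0.0402) and with spike-in scaling (0.0209). Lpin1, a lipid phosphatase that also works with PGC1 alpha, differed by 1.26 ± 0.39 (SE; adjusted p = 0.195) and the corepressor Nrip1 by −0.42 ± 0.15 (SE). Lpin1 passed without control array 3 (1.67, adjusted p = 0.0243) and Nrip1 without normalization (−0.78, adjusted p = 0.045).

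Of 20 target genes of PGC1 alpha, mostly mitochondrial, 17 were measured, 1 fell and 16 did not pass, with a median of −0.01. The one that fell was Alas1, the first enzyme of heme synthesis and a gene that PGC1 alpha is known to induce. It had 11.17, 11.10, 11.02 and 10.94 in controls and 10.15, 10.73, 9.70 and 9.88 with hydrogen water, so all hydrogen water arrays lay below all controls and array 2 was the closest to them. The difference was −0.94 ± 0.18 (SE; adjusted p = 0.0405), opposite in sign to those of Ppargc1a, which did not pass. In the 7 fits that left out an array other than hydrogen water array 2 the call of Alas1 was lost (adjusted p from 0.0549 to 0.118). It was also lost with spike-in scaling (0.0657), the stricter filter (0.0507) and no prior trend (0.1). Cpt1a, the entry enzyme of mitochondrial fatty acid oxidation, differed by −0.22 ± 0.10 and Cox5b, a subunit of cytochrome oxidase, by 0.12 ± 0.08 (SE). Cpt1a passed with the Gapdh covariate (−0.48, adjusted p = 0.036).

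Of 16 lipogenic and glycolytic genes that insulin induces, 12 were measured and 0 passed in limma (3 at an unadjusted p under 0.05), and the median was −0.00209. Thrsp, a lipogenic nuclear protein, differed by 1.32 ± 0.31 (SE; adjusted p = 0.0801), and the glucokinase regulator Gckr and the desaturase Scd by −0.25 ± 0.08 and −0.52 ± 0.21. Thrsp passed with spike-in scaling (1.41, adjusted p = 0.0213), with the Gapdh covariate (2.11, adjusted p = 0.0119) and without control array 3 (1.56, adjusted p = 0.0304), and Scd without normalization (−0.87, adjusted p = 0.0352). Of 10 genes of the IGF axis, whose hormones Igfbp1 binds, 8 were measured and 0 passed in limma (2 at an unadjusted p under 0.05), and the median was −0.14. Igfals differed by −0.38 ± 0.15, Igf1 by −0.20 ± 0.08 and Igfbp4 by 0.22 ± 0.11 (SE).

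Of 17 genes that glucocorticoids or glucagon induce in liver, the hormones that raise Ppargc1a and Igfbp1 in fasting, 14 were measured, 1 rose and 13 did not pass, with a median of 0.17. The one that rose was Fkbp5, a glucocorticoid target, with 6.18, 6.94, 7.55 and 6.16 in controls and 9.72, 8.82, 9.90 and 9.29 with hydrogen water. As at Foxo1, control array 3 was the highest control and hydrogen water arrays 3 and 1 were the highest of their group. The difference was 2.73 ± 0.32 (SE; adjusted p = 0.00543). The cAMP-responsive Crem differed by −0.68 ± 0.17 (SE; adjusted p = 0.102) and Tdo2, a tryptophan dioxygenase, by 0.50 ± 0.15 (SE; adjusted p = 0.175). Tdo2 passed with spike-in scaling (0.66, adjusted p = 0.0184), with the Gapdh covariate (0.84, adjusted p = 0.0362) and without control array 3 (0.66, adjusted p = 0.0268), and Crem without normalization (−0.99, adjusted p = 0.00385).

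The genes whose profile over the 8 arrays was closest to that of Foxo1 1376779_at were Edem1, Dcaf13, Slc25a33, Tns1 and Sesn2, by the root mean square difference of mean-centred log2 signals among 9106 genes. These differences were 0.17, 0.17, 0.18, 0.21 and 0.22 log2 units. Since closeness includes the group difference, the values of these genes are a description. Edem1, which sends misfolded glycoproteins to degradation, had 10.25, 10.57, 11.27 and 10.17 in controls and 11.92, 11.51, 12.11 and 11.86 with hydrogen water. Sesn2, a stress-induced inhibitor of mTORC1, had 8.16, 8.15, 9.01 and 7.49 in controls and 9.49, 8.80, 9.31 and 8.99 with hydrogen water. In each of the 5, control array 3 was the highest control, as at Foxo1, which the choice by closeness favours.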

How the data were processed

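Biotinylated cRNA from liver was prepared by the Affymetrix protocol, per the labels' protocols, and read on 8 arrays. The deposited values are intensities on a linear scale, made by the authors with MAS5, per the submitters' processing notes; its version, scaling target and detection calls were not used here. The 57 control probe sets were set aside and the other 31042 were quantile-normalized. Before taking log2, a pseudocount of 2.05 was added, which is 10% of the overall median, and the 15521 probe sets with a mean at or above the median were tested. Gene names came from the platform annotation, matched to RefSeq by Entrez ID for 20758 of 20826 probe sets with a single symbol. Groups were compared with lmFit and eBayes (trend) of limma 3.58.1 in R 4.3.3, with Benjamini-Hochberg adjustment over all tested probe sets at 0.05. Members below the filter were read from a fit without it. Of these steps, only the limma fit was tested on simulated data, made of normalized and filtered values with planted changes and no array effects. Its detection check covered only the largest planted changes. Normalization, pseudocount, filter and motif search were not tested in this way.

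The members and the gene lists were chosen with earlier results of these data known, and quantile normalization was made the main setting for the same reason. Every member probe set is reported. Of each list, the genes past the threshold are named and then, up to 3 in all, those with the smallest p, and for each member past the threshold the 5 closest profiles. The comparison of probe sets of 1 gene was added after their values were seen. Motifs were searched in RefSeq promoter sequences of GRCr8, in the 250 bases before each start. The alternatives were 5 other scalings, 2 pseudocounts, 2 filters, no prior trend, array weights, the Gapdh ratio as a covariate, gene means, a block for the replicate number, and leaving out each array. The number of arrays limits the precision.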

Additional observations from a re-analysis of the deposited data

Results flagged for a closer look

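In a group of 4 arrays, 1 array stood apart from the other 3 in 4 of 114 groups examined (57 probe sets, members and other named genes), where chance gives about 5%. Control array 3 had a Foxo1 signal of 7.83 at 1376779_at, against 6.93 to 7.05 in the other controls. Hydrogen water array 4 had 3.87 at Foxo3 1376229_at, a probe set below the filter, against 1.65 to 1.97. Control array 4 had 7.42 at Gab1, against 7.15 to 7.19. Control array 1 had 6.78 at Foxa1, against 7.17 to 7.25.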

How the results depend on the processing

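Over all tested probe sets 128 passed. The count was 505 without normalization, 64 without a prior trend, 239 with the Gapdh ratio as a covariate, 78 of gene means, and 55 to 197 when 1 array was left out: 61 without control array 2, 197 without 3 and 58 without 4, and 61, 55 and 71 without hydrogen water array 1, 3 and 4. Without normalization 484 of the 505 were lower, against 59 of 128, median centring gave 55 higher and 132 lower, spike-in scaling 102 and 42, and without normalization the median of all tested probe sets was −0.33. The member count of 1 became 0 without a prior trend and with gene means, and 0 to 1 when an array was left out. Without normalization it was 1, but there Foxo3 1376593_at passed (−0.72, adjusted p = 0.0267) and Foxo1 did not. The labels do not say whether arrays with the same number belong together. Deviations of same-numbered arrays correlated from −0.10 to 0.19, 1 of 4 pairs exceeded 0.1, and 1 of 4 controls matched its own number best. With 4 pairs these values cannot decide whether the arrays are paired. With the replicate number as a block 181 probe sets passed, and among the members Foxo1 alone did (adjusted p = 0.00902). Among the listed genes the block ended the call of Ctdsp2 (0.079), and Bcl2l11 (0.0136), Ppargc1b (0.0399), Thrsp (0.00479) and Tdo2 (0.0159) passed with it, as did Tns1 (0.0333), a gene with a profile close to Foxo1.

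Of the 278 values of member probe sets under the other settings, 261 kept their direction and their side of the threshold, and 154 of the 176 values with an array left out did. The signs that turned belong to differences that did not pass. Without normalization Foxo3 1376229_at was −0.078, Irs1 −0.25, Akt1 1383126_at −0.31 and Akt2 1388765_at −0.31. With spike-in scaling Foxo3 1376210_at was 0.063 and Akt1 1368862_at 0.012, and with array weights the last was 0.026. Foxo3 1376229_at was −0.022 with cyclic loess. With median centring Akt1 1383126_at was −0.044 and Akt2 1388765_at −0.052. With the Gapdh covariate Akt1 1383126_at was −0.046, Akt2 1378425_at −0.081 and the listed gene Sos2 0.052. The mean of the 3 tested Akt2 probe sets was −0.13. It was counted as a turn because it was set against 1388765_at alone (0.04). The other probe sets in that mean were already at −0.21 and −0.23 in the main fit. Without normalization the listed genes Shc1, Eif4ebp1, Mapk8, Cox5b and Igfbp4 were −0.22, −0.10, −0.092, −0.14 and −0.094. With 1 array left out Foxo3 1376210_at ran from −0.33 to 0.093 and 1376229_at from −0.50 to 0.45, Irs1 from −0.072 to 0.19, Akt1 1368862_at from −0.12 to 0.054, 1375178_at from −0.077 to 0.54 and 1383126_at from −0.016 to 0.070, Akt2 1388765_at from −0.022 to 0.080 and Pik3r1 from −0.42 to 0.097. The cause of these turns was not tested. The stricter filter left no value for members under it. Low MAS5 signals cannot be set apart from background without detection calls.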
